A study of Mus musculus with 12 samples.

Results

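The genes described here are 7 genes of the mevalonate route to sterols: Hmgcs1, Idi1, Fdps, Fdft1, Sqle, Lss and Insig1. They were chosen by name, as the rows of the deposited tables whose gene symbol equals these names, and not by their values. All 7 are among the 24394 genes listed in every table, and 6 of them passed the filter on low values that left 11647 genes to test. Lss did not pass.

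The values describe endothelial cells sorted by flow cytometry from the lungs of 5-day-old mice (P5) of the C57BL/6J strain. There were 3 groups with 4 libraries each. WT mice were labelled wild type. L12-ECKO mice carried VE-cadherin-CreERT2 with floxed alleles of both Lats1 and Lats2, and L12YT-ECKO mice carried the same driver and alleles together with floxed Yap and TAZ (gene symbols Yap1 and Wwtr1). VE-cadherin-CreERT2 is an inducible recombinase driven by an endothelial promoter. Whether WT mice carried the recombinase or received the inducer, and when it was given, is not given in the sources used here. LATS1 and LATS2 are the kinases of the Hippo pathway that restrain the transcriptional coactivators YAP and TAZ, so the groups allow sterol genes to be compared when the kinases are lost with YAP and TAZ present, and when all are lost together. The labels do not state whether each library is a separate animal, so p-values rest on the spread between these libraries, which may be technical. In sorted cells measured in bulk, fewer cells of a type and less RNA per cell cannot be told apart.

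The mevalonate route starts from acetyl-CoA and builds isoprenoid units, which are joined into farnesyl diphosphate and then either condensed to squalene and cyclised towards cholesterol, or used for prenyl groups, dolichol and ubiquinone. Most of its genes are driven by the transcription factor SREBP2, which is held in the endoplasmic reticulum by SCAP and INSIG proteins when sterols are abundant and released to the nucleus when they are scarce. Prenyl groups made by this route anchor signalling proteins to membranes, some of which act upstream of YAP and TAZ, and this link is the reason for looking at these genes beside LATS, YAP and TAZ.

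Promoter sequences were searched for the letters of 2 elements through which SREBP2 and its partner NF-Y are known to act on this route. The element of TEAD, described in the next paragraph, was searched too. RefSeq windows (GRCm38.p6) from 250 bases before to 50 bases after the transcription start were matched for 4 of the 7 genes, Hmgcs1, Idi1, Insig1 and Lss. The 200 bases upstream of the start are printed for Hmgcs1 and Idi1. Hmgcs1 makes HMG-CoA early in the route, and its window holds the elements of both SREBP2 and NF-Y. The libraries of Idi1 were separated in the comparison of L12-ECKO with WT described below. The printed bases lie at chr13:119690151-119690350 for Hmgcs1 and chr13:8885406-8885605 for Idi1, both on the + strand and written from 5′ to 3′. For Idi1 the RefSeq start lies inside the gene as GENCODE places it, from 8885501. Both marked matches of Idi1 therefore lie within that gene. Capitals mark a match to the core of the sterol regulatory element (TCACNCCA, here TCACCCCA) or the reverse complement ATTGG of the NF-Y element CCAAT.
Hmgcs1: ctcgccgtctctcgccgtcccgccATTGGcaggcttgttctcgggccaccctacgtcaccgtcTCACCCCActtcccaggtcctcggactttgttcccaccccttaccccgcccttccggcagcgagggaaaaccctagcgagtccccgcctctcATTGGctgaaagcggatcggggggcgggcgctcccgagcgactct
Idi1: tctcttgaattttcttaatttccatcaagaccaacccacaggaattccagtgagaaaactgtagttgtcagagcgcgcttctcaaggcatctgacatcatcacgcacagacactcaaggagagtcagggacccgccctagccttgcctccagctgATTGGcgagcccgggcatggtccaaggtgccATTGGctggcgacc

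Searched on both strands of the whole windows, TCACNCCA was found in 1 of the 4 promoters (Hmgcs1, 137 bases upstream of the start), against 4.36% of 32851 promoters of the same length. CCAAT was found in 4 of 4, against 37.4%. Of 14 other enzymes of the route with a window, 13 held CCAAT and 1 held TCACNCCA (Msmo1). GGAATG, the core of the element bound by TEAD, the partner of YAP and TAZ on DNA, was found in 0 of the 4 windows and 0 of the 14, against 14.7%. A match is a description of the letters and does not show binding, and a window without a match says only that these letters are not in it.

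The values are log2 expression after quantile normalization, from libraries made with a kit that reads the 3′ ends of transcripts. They carry no read counts, so the depth of each library is unknown, and the number of genes above 0 ranged from 9850 to 13078. The lowest value above 0 differed between libraries: it was 3.01 to 3.16 in WT, 0.067 to 4.98 in L12-ECKO (4.98 in replicate 3) and 0.131 to 2.77 in L12YT-ECKO. A low gene can therefore be at 0 in a library and above 0 in another because of this floor. In 5 of the tables a block of rows is moved by 1 row relative to the other 7. The libraries concerned are replicates 2, 3 and 4 of L12-ECKO, with replicates 3 and 4 of L12YT-ECKO. No WT library is among them. The 36 rows concerned were left out, and none is a gene of the lists used here. These 5 libraries stood apart in other ways that are given beside the results below. By Xist and Ddx3y, 1 WT library, 3 L12-ECKO libraries and 1 L12YT-ECKO library were female. All 10 endothelial markers were above 0 in all 12 libraries, and the log2 of their summed level was 18.16 to 18.37, a sum that Egfl7 dominates with the same value of 17.72 in every library. Of the 10, Cldn5 was called, 1.14 higher in L12YT-ECKO than in L12-ECKO (limma adjusted p = 0.0399). Wwtr1 and Yap1 were lower in L12YT-ECKO (group means 8.81 and 7.72) than in WT (11.81 and 9.79) and L12-ECKO (11.18 and 9.97), with no overlap between libraries. Of all genes tested, 1.62% were lower without overlap in L12YT-ECKO versus L12-ECKO. In that comparison both were called (limma adjusted p = 0.00518 for Wwtr1 and 0.0388 for Yap1). Against WT, Wwtr1 was called (limma adjusted p = 0.000655) and Yap1 was not (limma adjusted p = 0.184). Lats1 ranged from 5.32 to 7.45 in WT and from 0 to 7.90 in the deleted groups. Lats2 ranged from 8.42 to 9.34 in WT, 9.71 to 10.33 in L12-ECKO and 8.63 to 9.57 in L12YT-ECKO. All L12-ECKO libraries of Lats2 lay above all WT libraries, as for 2.96% of all genes tested, without a call (limma adjusted p = 0.261). Where the 3′ reads of Lats1 and Lats2 lie relative to the deleted exons is not given in the sources used here, so these 2 genes do not check the deletion.

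None of the 6 tested sterol genes was called in any of the 3 comparisons at a limma adjusted p under 0.05, and none reached an unadjusted p under 0.05. Limma called 0.481% of all genes in L12-ECKO versus WT, 0.00859% in L12YT-ECKO versus WT and 0.0687% in L12YT-ECKO versus L12-ECKO, and 12.2%, 6.22% and 6.08% had an unadjusted p under 0.05. Against these shares, a count of 0 of 6 lies near the background. Group means lay mostly above WT, without a call. The mean was higher in L12-ECKO than in WT for 4 of the 6 genes and in L12YT-ECKO for 5 of the 6, where 48.9% and 54.3% of all genes tested were higher. The median difference over the 6 was 0.62 for L12-ECKO and 0.55 for L12YT-ECKO, against -0.02 and 0.08 over all genes tested. Both comparisons use the same 4 WT libraries, so a low or high WT library moves both. Between the deleted groups, 2 of the 6 genes had a higher mean in L12YT-ECKO than in L12-ECKO, where 55% of all genes tested did, and the median difference was -0.48 against 0.09.

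**Figure D1:**
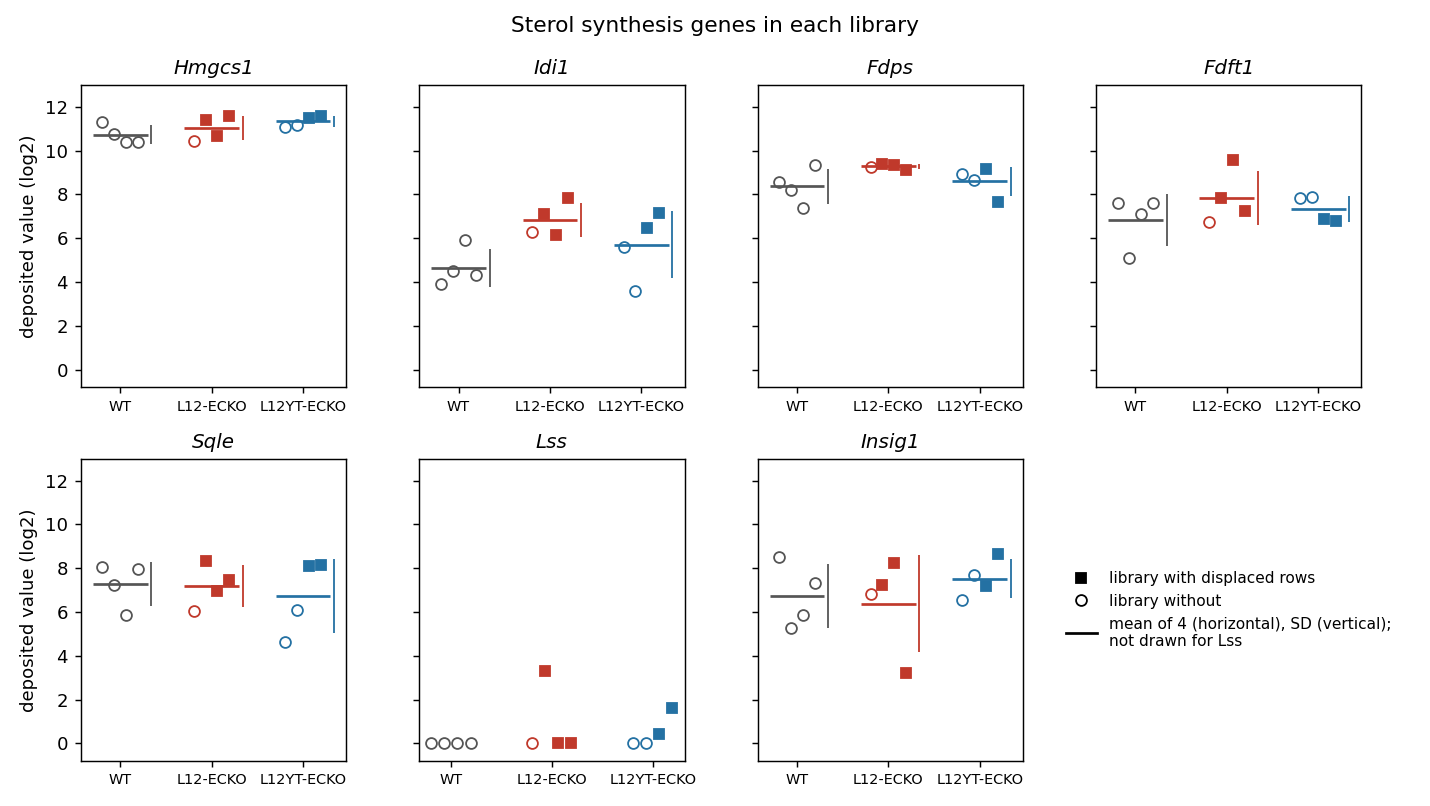
Deposited log2 value (vertical axis) of the 7 sterol genes in each of the 4 libraries of WT, L12-ECKO and L12YT-ECKO. Horizontal lines are group means and vertical lines 1 SD, neither drawn for Lss, and squares mark the 5 libraries with displaced rows. Idi1 is the only gene whose 4 L12-ECKO libraries (6.13 to 7.84) all lie above the 4 WT libraries (3.90 to 5.91).

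Hmgcs1 (chr13:119690379-119708260, + strand in GRCm38) encodes the cytosolic HMG-CoA synthase, an early enzyme of the route. In replicates 1 to 4, as in all such lists of values here, WT libraries were at 11.31, 10.78, 10.39 and 10.38. L12-ECKO libraries were at 10.45, 11.41, 10.67 and 11.60, and L12YT-ECKO libraries at 11.10, 11.18, 11.49 and 11.58. All 4 L12YT-ECKO libraries lay above the WT mean, but WT replicate 1 lay within their range, and the L12-ECKO libraries spread over the range of both other groups. WT averaged 10.72 ± 0.44 (SD, n = 4), L12-ECKO 11.03 ± 0.56 and L12YT-ECKO 11.34 ± 0.24. The difference was 0.32 for L12-ECKO versus WT (95% interval -0.33 to 0.96, limma adjusted p = 0.708). For L12YT-ECKO versus WT it was 0.62, which is 1.54-fold (95% interval -0.03 to 1.27 on the log2 scale, limma adjusted p = 0.805). Hmgcs1 was the most precisely measured of the 6: its pooled SD within groups was 0.43, and 12.4% of the genes tested had a smaller one. The upper bounds of the 95% intervals put Hmgcs1 at no more than 1.95-fold in L12-ECKO and 2.41-fold in L12YT-ECKO, relative to WT. An antisense gene, Gm48342, overlaps 6190 bases of its locus, and whether reads were counted by strand is not given in the sources used here.

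Idi1 (chr13:8885501-8892451, + strand) encodes the isomerase that turns isopentenyl diphosphate into dimethylallyl diphosphate, the starter unit for chain growth. WT libraries gave Idi1 values of 3.90, 4.49, 5.91 and 4.32, and L12-ECKO libraries gave 6.29, 7.12, 6.13 and 7.84. In L12YT-ECKO they were 5.61, 3.61, 6.46 and 7.14. Every L12-ECKO library was higher than every WT library, as was the case for 2.96% of all genes tested, 345 of 11647. L12YT-ECKO replicates 1 and 2 lay within the WT range or below it and replicates 3 and 4 above it. The means were 4.66 ± 0.87 (SD, n = 4), 6.84 ± 0.79 and 5.70 ± 1.53. The difference of 2.19 between L12-ECKO and WT corresponds to 4.56-fold, but its 95% interval ran from -0.20 to 4.58 and it was not called (limma adjusted p = 0.447). That width does not come from the Idi1 libraries alone, because limma also draws on the spread of genes at a like level. The pooled SD of Idi1 within groups was 1.12, against 1.61 for Insig1, but its limma standard error was the larger (1.144 against 1.024). L12YT-ECKO differed from WT by 1.05 (95% interval -1.34 to 3.44, limma adjusted p = 0.901) and from L12-ECKO by -1.14 (95% interval -3.53 to 1.25, limma adjusted p = 0.962), so neither an equal level in the deleted groups nor a return to the WT level was shown. The unclassified gene Gm48574 overlaps 323 bases of Idi1 on the opposite strand. Within the 7 libraries without displaced rows the Idi1 difference was 1.63 for L12-ECKO, which has 1 library there, and -0.05 for L12YT-ECKO, which has 2.

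Fdps (chr3:89093588-89101959, - strand) encodes farnesyl diphosphate synthase, at the branch point between sterols and prenyl groups. WT libraries were at 8.55, 8.21, 7.39 and 9.33, L12-ECKO libraries at 9.26, 9.41, 9.34 and 9.13, and L12YT-ECKO libraries at 8.95, 8.66, 9.14 and 7.65. The 4 L12-ECKO libraries were close together and near the highest WT library, with a mean of 9.29 ± 0.12 (SD, n = 4), against 8.37 ± 0.80 for WT and 8.60 ± 0.66 for L12YT-ECKO. L12-ECKO differed from WT by 0.92, or 1.89-fold (95% interval -0.04 to 1.87, limma adjusted p = 0.429). L12YT-ECKO differed from WT by 0.23 (95% interval -0.72 to 1.18, limma adjusted p = 0.953). It differed from L12-ECKO by -0.69 (95% interval -1.64 to 0.27, limma adjusted p = 0.903), with all 4 libraries below the L12-ECKO mean. The Fdps value is uncertain as a measure of 1 gene, because the last 300 bases of its transcripts align over at least 100 bases to transcripts of 8 other genes. These include Gm43738, which overlaps Fdps on the same strand, and Gm3571, with 99.2% identity over 245 bases.

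**Figure D2:**
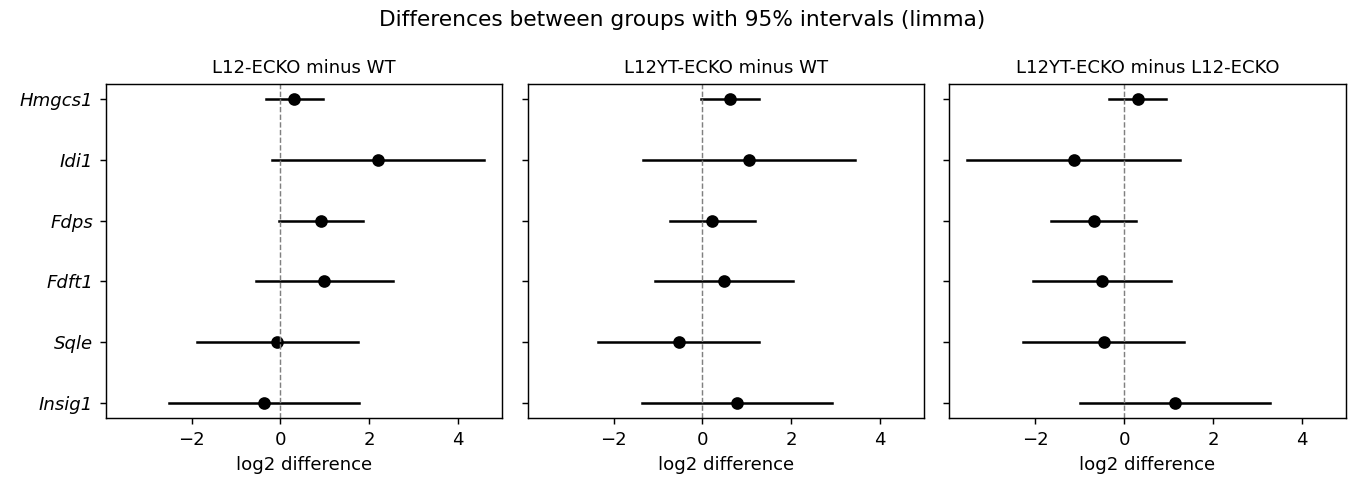
Difference in log2 value (horizontal axis) of the 6 tested sterol genes in each comparison, with the 95% interval from limma as a bar. Every interval includes 0, and those of Sqle, Idi1 and Insig1 are the widest.

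Fdft1 (chr14:63145150-63179578, - strand) encodes squalene synthase, the first enzyme committed to sterols. WT values were 7.59, 5.10, 7.12 and 7.60, L12-ECKO values 6.74, 7.84, 9.56 and 7.23, and L12YT-ECKO values 7.81, 7.86, 6.87 and 6.81. The groups overlapped, and WT replicate 2 and L12-ECKO replicate 3 were the lowest and highest libraries. L12-ECKO differed from WT by 0.99 (95% interval -0.56 to 2.54, limma adjusted p = 0.596) and L12YT-ECKO by 0.49 (95% interval -1.07 to 2.04, limma adjusted p = 0.937). L12YT-ECKO differed from L12-ECKO by -0.50 (95% interval -2.06 to 1.05, limma adjusted p = 0.975), and without L12-ECKO replicate 3 by 0.07. The 3′ end of Fdft1 overlaps 774 bases of Ctsb on the opposite strand, so its value is also uncertain. Ctsb, the gene of the protease cathepsin B, lay between 8.14 and 9.85 in the 12 libraries and, unlike Fdft1, had its highest group mean in WT (9.20, against 8.62 in L12-ECKO and 8.74 in L12YT-ECKO).

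Sqle (chr15:59315077-59331192, + strand) encodes squalene epoxidase, an enzyme with strong feedback control by sterols. WT libraries had Sqle at 8.04, 7.22, 5.84 and 7.97, L12-ECKO libraries at 6.04, 8.34, 6.94 and 7.48, and L12YT-ECKO libraries at 4.65, 6.07, 8.09 and 8.13. The groups overlapped throughout. Within L12YT-ECKO, replicates 1 and 2 lay 2.75 below replicates 3 and 4 on average. The Sqle difference from WT was -0.07 for L12-ECKO (95% interval -1.89 to 1.75, limma adjusted p = 0.985) and -0.53 for L12YT-ECKO (95% interval -2.35 to 1.28, limma adjusted p = 0.938). These intervals allow a change of Sqle up to 3.35-fold upwards in L12-ECKO, so they do not show an equal level. L12YT-ECKO differed from L12-ECKO by -0.46 (95% interval -2.28 to 1.35, limma adjusted p = 0.984), a sign that turned when displaced rows were held as a covariate (0.09).

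Lss (chr10:76531588-76557138, + strand) encodes lanosterol synthase, which closes the sterol rings. It was listed at 0 in the 4 WT libraries, in 3 of 4 L12-ECKO libraries and in 2 of 4 L12YT-ECKO libraries. The values above 0 were 3.32 in L12-ECKO replicate 2, and 0.42 and 1.63 in L12YT-ECKO replicates 3 and 4. All 3 are libraries with displaced rows, and Lss lay below the filter in every library. The values of 0.42 and 1.63 lie below the lowest value above 0 that any WT library lists (3.01), so they could not have appeared in WT. An exact 0 in these tables need not mean absence, and no fold is given. The antisense gene 4930483K19Rik, which overlaps the 3′ end of Lss, was listed at 0 in all 12 libraries.

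Insig1 (chr5:28071363-28078662, + strand) encodes the endoplasmic reticulum protein that retains SCAP and SREBP, and its own transcription is a sensitive readout of SREBP. Insig1 values were 8.52, 5.26, 5.88 and 7.31 for WT, 6.83, 7.25, 8.24 and 3.20 for L12-ECKO, and 6.56, 7.70, 7.18 and 8.65 for L12YT-ECKO. It varied most of the 6, with a pooled SD of 1.61 within groups, and L12-ECKO replicate 4 was the lowest of the 12 libraries. The differences of Insig1 were -0.36 for L12-ECKO versus WT (95% interval -2.50 to 1.78, limma adjusted p = 0.915), 0.78 for L12YT-ECKO versus WT (95% interval -1.36 to 2.92, limma adjusted p = 0.922) and 1.14 for L12YT-ECKO versus L12-ECKO (95% interval -1.0 to 3.28, limma adjusted p = 0.957). Without L12-ECKO replicate 4 the first of these became 0.70. No change in Insig1 was detectable in either comparison with WT, and the intervals span more than 1 log2 unit on both sides of 0.

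The 6 genes did not vary as a block from library to library. Over the 15 pairs of genes, the correlation of deviations from the group means in the 12 libraries ranged from -0.48 (Idi1 and Fdps) to 0.65 (Hmgcs1 and Sqle), and that of Fdft1 and Insig1 was 0.53. The 12 points share normalization, sorting and the displaced rows, and these values are descriptions. Hmgcs1, Sqle and Idi1 all correlated above 0 with one another (0.27 to 0.65). Per library, the mean of the 6 genes averaged 7.43 ± 0.55 (SD, n = 4) for WT, 8.10 ± 0.49 for L12-ECKO and 7.87 ± 0.46 for L12YT-ECKO, with overlapping libraries in every pair of groups.

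Libraries with and without displaced rows were also compared, and limma called 0 of the 6 sterol genes, with 1 (Sqle) at an unadjusted p under 0.05. The mean of the 6 was 7.75 to 8.56 in the 5 libraries with displaced rows and 6.84 to 7.98 in the other 7, which overlap. No WT library has displaced rows, so a fit with the group held compares libraries within the deleted groups only. These are 3 against 1 in L12-ECKO and 2 against 2 in L12YT-ECKO. In this fit 0% of 11647 genes were called and 644 had an unadjusted p under 0.05. Sqle was 2.23 higher in the 5 (95% interval 0.56 to 3.91, limma adjusted p = 0.65). The same difference was 1.57 for Idi1 (95% interval -0.94 to 4.08) and 0.56 for Hmgcs1 (95% interval -0.09 to 1.21), and lay between -0.22 and 0.19 for Fdps, Fdft1 and Insig1. Markers of hepatocytes, cells with a high output of sterols, differed along the same split. In the same fit 8 of 8 tested markers were higher in the 5 libraries, with a median difference of 5.08 (0 called by limma, 5 at an unadjusted p under 0.05). A marker could pass the filter through these 5 libraries alone, as Apoc3 did, which averaged 0 in the other 7. The count and the median of tested markers are therefore descriptions that the filter favours. The mean value of 15 hepatocyte markers was 3.56 to 6.61 in the 5 libraries and 0.83 to 2.13 in the other 7. WT libraries had a log2 of the summed marker level of 8.06 to 9.87 with 10 to 13 of the 15 at 0. L12-ECKO libraries had 9.12 to 12.39 with 2 to 11 at 0, and L12YT-ECKO libraries 8.60 to 11.17 with 1 to 12 at 0. These counts at 0 also depend on the lowest value above 0 of each library. Alb, the albumin gene, was at 6.13 to 9.11 in the 5 libraries and at 0 to 5.22 in the other 7, and Afp was at 0 in all 12. With the group in the fit, immune markers were lower in the 5 libraries in 7 of 7 (median -3.34, 2 at an unadjusted p under 0.05). Red cell and platelet markers were lower in 7 of 7 (median -0.83, 1 at that level). Mesenchymal markers were lower in 8 of 9 (median -1.52, 2 at that level in either direction). Alveolar epithelial markers went both ways, with 4 of 9 higher (median -0.8, 2 at that level in either direction). Limma called 0 in each of these lists. The part of these cell types in the sterol gene values was not tested. Within the 7 libraries without displaced rows, the median difference of the 6 genes between L12-ECKO (1 library) and WT was -0.01 in place of 0.62, and Hmgcs1, Fdft1 and Insig1 changed sign (-0.27, -0.11 and 0.09). The L12-ECKO library among the 7 had the highest immune marker mean, 8.33 against at most 4.15 in the other 11, and the part of this too was not tested. All 3 female L12-ECKO libraries are those with displaced rows, so sex and displaced rows cannot be told apart within that group.

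**Figure D3:**
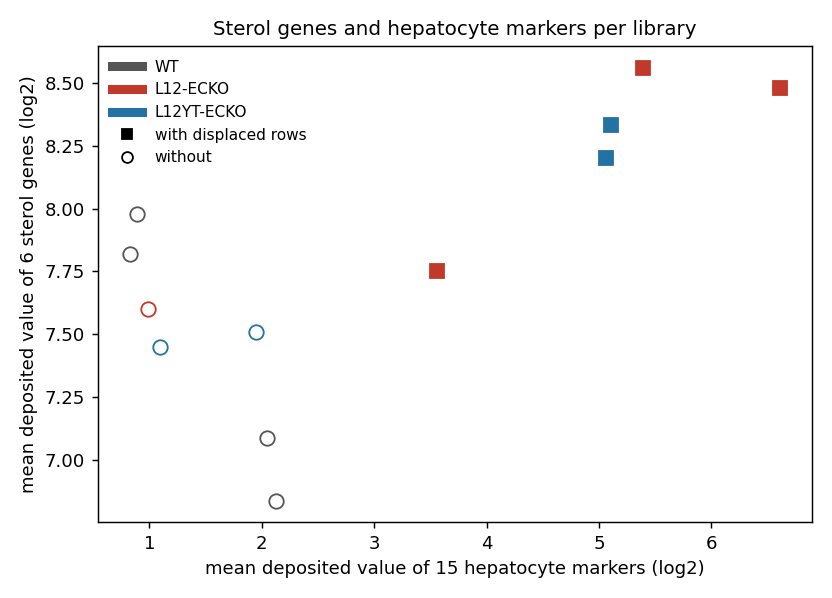
Mean log2 value of the 6 tested sterol genes (vertical axis) against the mean log2 value of 15 hepatocyte markers (horizontal axis), 1 point per library, coloured by group. Squares are the 5 libraries with displaced rows, which lie at 3.56 to 6.61 on the horizontal axis and 7.75 to 8.56 on the vertical axis.

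The other enzymes of the route gave no call either. Of 17 named enzymes 16 were found and 15 tested, and limma called 0 of 15 in each comparison. In L12-ECKO versus WT 9 were higher and 6 lower, with a median of 0.28, and 6 of 15 had an unadjusted p under 0.05, where 12.2% of all genes did. The smallest adjusted p was 0.208. Of the early steps, mevalonate kinase Mvk differed by 2.03 (95% interval 0.63 to 3.42, limma adjusted p = 0.208). WT libraries had Mvk at 5.13, 5.77, 8.76 and 7.64, L12-ECKO libraries at 8.68, 9.51, 8.49 and 8.73, and L12YT-ECKO libraries at 7.40, 8.10, 7.82 and 8.0. Every L12YT-ECKO library lay below every L12-ECKO library, as for 1.62% of all genes. WT replicate 3 kept the WT and L12-ECKO ranges of Mvk overlapping. The diphosphomevalonate decarboxylase Mvd differed by 1.59 (95% interval 0.03 to 3.14, limma adjusted p = 0.401).

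The later enzymes went both ways in L12-ECKO versus WT. Ebp, the sterol isomerase, differed by 1.56 (95% interval 0.35 to 2.77, limma adjusted p = 0.269). Lbr, the lamin B receptor with sterol reductase activity, had WT values of 11.07, 10.75, 10.26 and 11.20 and L12-ECKO values of 9.92, 9.95, 9.90 and 10.08. All L12-ECKO libraries of Lbr were lower than all WT libraries, as for 3.36% of genes tested, with a difference of -0.86 (95% interval -1.46 to -0.25, limma adjusted p = 0.217). Nsdhl, which removes a carboxyl group from methylated sterols, differed by -3.00 (95% interval -5.80 to -0.20, limma adjusted p = 0.377) with L12-ECKO replicate 3 listed at 0. Hsd17b7, the sterol ketoreductase, differed by 3.39 (95% interval 0.09 to 6.69, limma adjusted p = 0.399) with WT replicates 2 and 3 listed at 0. A single library or a pair at 0 thus sets much of these last differences. Acat2, Pmvk, Ggps1, Cyp51, Msmo1, Sc5d and Dhcr7 differed by -2.10 (Dhcr7) to 1.32 (Ggps1), all with intervals that include 0. In L12YT-ECKO versus WT 10 of the 15 were higher and 5 lower, with a median of 0.41 and a smallest limma adjusted p of 0.76 (Hsd17b7, 3.62, 95% interval 0.31 to 6.92). In L12YT-ECKO versus L12-ECKO 9 were higher and 6 lower with a median of 0.13, and 0 had an unadjusted p under 0.05. Tm7sf2 was at 0 in the 4 WT libraries and was not tested.

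**Figure D4:**
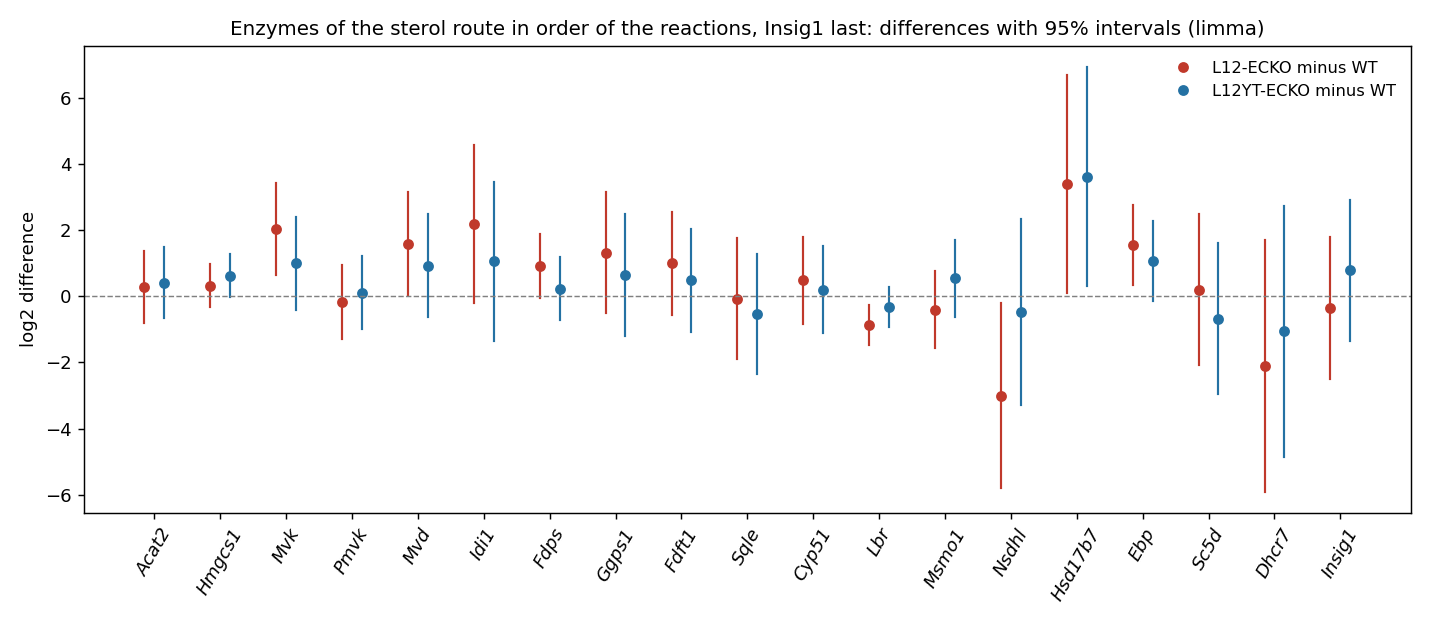
Difference in log2 value from WT (vertical axis) with the 95% interval from limma for L12-ECKO and L12YT-ECKO, for 18 enzymes in the order of their reactions and Insig1 last. Ggps1, placed between Fdps and Fdft1, belongs to the branch to prenyl groups and is not a step towards squalene. Both comparisons share the 4 WT libraries, and none of the 19 genes was called in either.

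The machinery that senses sterols was also without a call, but its means went another way in L12-ECKO. In L12-ECKO versus WT 5 genes were higher and 7 lower, with a median of -0.25. In L12YT-ECKO versus WT 9 were higher and 3 lower, with a median of 0.42. Of 12 tested genes of sterol sensing and SREBP processing limma called 0 in each comparison, and 1 had an unadjusted p under 0.05 in each comparison with WT and 0 between the deleted groups. Srebf2, the gene of SREBP2, had WT values of 8.33, 9.27, 9.04 and 9.21 and L12-ECKO values of 9.73, 10.15, 9.81 and 9.48. Its 4 L12-ECKO libraries lay above all WT libraries, as for 2.96% of all genes tested. The mean difference was 0.83 (95% interval 0.05 to 1.60, limma adjusted p = 0.377). L12YT-ECKO libraries of Srebf2 (9.34, 9.07, 10.40 and 9.66) overlapped both groups. Scap, the SREBP escort, differed from WT by -0.25 in L12-ECKO and 0.57 in L12YT-ECKO, and Mbtps1, the first protease that cuts SREBP, by -0.25 and -0.01, with no call.

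Other targets of SREBP outside sterol synthesis showed 0 calls by limma among 12 tested of 15, with 1 at an unadjusted p under 0.05 in each of the 3 comparisons. Stard4, a sterol carrier, differed by -1.01 in L12-ECKO versus WT (95% interval -1.84 to -0.17, limma adjusted p = 0.313). In L12YT-ECKO Stard4 was 1.12 above L12-ECKO (95% interval 0.28 to 1.96, limma adjusted p = 0.635), and all 4 libraries lay above the 4 L12-ECKO libraries, as for 2.75% of genes tested. The fatty acid genes Scd2 and Acly differed from WT by -0.28 and -0.24 in L12-ECKO and by 0.14 and 0.02 in L12YT-ECKO.

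Genes of sterol export and the LXR receptors had 0 calls by limma among 9 tested of 12, with 1 at an unadjusted p under 0.05 in each of the 3 comparisons. In L12-ECKO versus WT Npc2, Nr1h2, Lpcat3 and Apoe differed by -0.48, 1.13, -0.02 and 0.18. Mylip, a ubiquitin ligase known as an LXR target, came nearest to a call in that comparison (limma adjusted p = 0.0862). It was named after its values were seen. The list as a whole went both ways there, with 5 genes higher and 4 lower and a median of 0.18. Mylip averaged 5.40 in WT and 8.97 in L12-ECKO, a difference of 3.57 (95% interval 1.73 to 5.42). Its L12-ECKO libraries all lay above its WT libraries, as for 2.96% of all genes tested. Users of the other mevalonate products, prenyltransferases and enzymes of dolichol and ubiquinone, had 0 calls by limma among 15 tested of 16, with 1 at an unadjusted p under 0.05 in L12-ECKO versus WT and 0 in the other comparisons. Nus1, a subunit of the enzyme that makes the dolichol chain, differed by 1.44 in L12-ECKO versus WT (95% interval 0.63 to 2.25, limma adjusted p = 0.123), and Fnta, Rabggtb and Rce1 by 0.79, -0.13 and 0.54.

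Calls in the same fit and the same libraries give examples of differences that passed, but size alone did not set them. Cldn5 passed at 1.14 in L12YT-ECKO versus L12-ECKO. Mylip at 3.57 in L12-ECKO versus WT and Yap1 at -2.08 in L12YT-ECKO versus WT did not pass. Ctgf and Cyr61, transcriptional readouts of YAP and TAZ, rose by 6.18 and 4.22 in L12-ECKO relative to WT (limma adjusted p = 0.000381 for both). In L12YT-ECKO relative to L12-ECKO, Ctgf fell by 4.23 (limma adjusted p = 0.0191) and Cyr61 fell by 3.47 (limma adjusted p = 0.00518). Crim1, the other gene of the 6 readouts that passed, rose by 2.01 with a 95% interval of 1.44 to 2.58. The difference of Idi1 was of the same size as that of Crim1, and its interval, which draws on other genes too, was wider.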

How the data were processed

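RNA of sorted lung endothelial cells was extracted with Trizol and libraries were made with a Lexogen QuantSeq kit, per the labels' protocols. The submitters' processing notes name Bowtie2, edgeR and the build mm10, with no versions. The authors deposited log2 values per gene and library, and these 12 columns share 1 distribution: over the 5000 highest ranks the values at a rank differ by at most 0.168 between libraries. The values keep no counts, so no interval for counting error could be given.

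The tables were joined on gene symbol (24394 genes). Rows displaced in 5 libraries were left out (36). Genes reaching 1 CPM, computed from 2 to the power of the value, in at least 4 libraries were tested, which is a value of 3.52. Limma 3.58.1 (R 4.3.3; trend and robust prior) was fitted to the 12 libraries on group alone, with Benjamini-Hochberg adjustment over 11647 genes and a threshold of 0.05, and was tested on simulated data. Gene positions are from GENCODE M21. The genes and lists were chosen with earlier results of these data known. Named were the 7 genes, the called genes and the 4 with the highest mean of each other list (all tested enzymes of the route), the targeted genes, Ctgf, Cyr61 and the 5 genes most like the sterol genes. Mylip, Alb, Afp and the genes overlapping the sterol genes were named outside this rule. Some genes that the rule would name are not reported here, but are part of the counts over lists. Alternatives changed the filter, scale, prior, weights, covariates, batch and libraries.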

Additional observations from a re-analysis of the deposited data

Results flagged for a closer look

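Among 67 groups of 4 libraries of the sterol genes and the other enzymes of the route, 7 held a library whose gap to the nearest of the others, divided by the range of the group, exceeded Dixon's critical value at the 95% level. Chance gives such a gap in about 1 in 20 groups of values that are not held at 0. Of the 7 genes described, Lss met the criterion, with 3.32 in L12-ECKO replicate 2 and the other 3 at 0. Low libraries of the other enzymes were Acat2 at 6.46 in WT replicate 4, Pmvk at 6.88 in L12-ECKO replicate 1 and Ggps1 at 3.66 in WT replicate 3. Dhcr7 was also low, at 0 in L12YT-ECKO replicate 1, with the others from 5.98 to 6.54. High libraries were Tm7sf2 at 2.18 in L12-ECKO replicate 1, the others being at 0, and Msmo1 at 9.38 in L12YT-ECKO replicate 2. For Lss and Tm7sf2, with 3 libraries at 0, any value above 0 meets the criterion, so it singles out nothing there.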

How the results depend on the processing

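No sterol gene was called under any alternative, and the smallest limma adjusted p of any was 0.267. Of 438 single-gene values, 22 changed sign. In L12-ECKO versus WT the median of the 6 genes was -0.01 within the libraries without displaced rows and 0.09 on the scale of a second logarithm. In L12YT-ECKO versus L12-ECKO it was 0.04 within the libraries with displaced rows and 0.03 with sex as a covariate. Within the libraries without displaced rows, differences from WT reversed for Hmgcs1 (-0.27), Fdft1 (-0.11) and Insig1 (0.09) in L12-ECKO and for Idi1 (-0.05) in L12YT-ECKO, and Fdft1 differed by 1.10 between the deleted groups. With displaced rows as a covariate Hmgcs1 reversed in L12-ECKO versus WT (-0.10). Insig1 did so with values under 5 raised to 5 (0.09). Sqle in L12YT-ECKO versus L12-ECKO was 0.09 with displaced rows as a covariate, 0.52 within the libraries with displaced rows, 0.15 with library weights and 0.25 with sex as a covariate. Leaving out each library in turn gave, in L12-ECKO versus WT, -0.98 to 0.70 for Insig1 (0.70 without L12-ECKO replicate 4, 0.23 without WT replicate 1) and -0.55 to 0.32 for Sqle (0.32 without L12-ECKO replicate 1, 0.02 without L12-ECKO replicate 3, 0.19 without WT replicate 1, 0.16 without WT replicate 4). In L12YT-ECKO versus WT it gave -0.10 to 0.73 for Fdft1, -0.10 to 0.55 for Fdps and -1.01 to 0.16 for Sqle, and in L12YT-ECKO versus L12-ECKO -0.87 to 0.07 for Fdft1 and -0.93 to 0.23 for Sqle. The cause was not tested. Of all genes, 56 were called in L12-ECKO versus WT, and 15 with displaced rows as a covariate, 24 with library weights, 7 with no trend and no robust prior, 29 on a second logarithm, 15 with sex as a covariate, 26 with the groups compared only, 87 with values under 5 raised to 5 and 15 to 79 when a library was left out. In L12YT-ECKO versus L12-ECKO 8 were called, and limma called 0 within the libraries with displaced rows (325 at an unadjusted p under 0.05), 23 with library weights, 3 with no trend, 4 on a second logarithm, 5 with sex, 4 with the groups compared only and 4 to 9 when a library was left out. In L12YT-ECKO versus WT 1 was called, and 1 to 3 when a library was left out (3 without WT replicate 1). No WT library has displaced rows, so that alternative gave no value against WT. Replicate numbers did not pair the libraries (correlations of deviations -0.052 to 0.09 over 12 pairs). The replicate block gave 43, 1 and 6 called genes in L12-ECKO versus WT, L12YT-ECKO versus WT and L12YT-ECKO versus L12-ECKO, and changed no sterol gene's call. A library correlated best with its own number in 6 of 24 cases. The depth is unknown, so the reads behind low values such as those of Lss cannot be given.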

Other observations

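The 5 tested genes whose values over the 12 libraries were most like the mean of the 6 scaled sterol genes were Pus7 (Pearson r = 0.89), BC037034 (0.89), Smim1 (0.87), Lrrc57 (0.86) and Wrb (0.85). The 12 libraries share normalization and the displaced rows, and the genes were picked for the highest r among all genes tested, so these values are a description. For WT, L12-ECKO and L12YT-ECKO in turn, Pus7 averaged 2.77 ± 3.31 (SD, n = 4), 7.49 ± 2.15 and 7.38 ± 0.50, and Smim1 averaged 7.62 ± 0.74, 9.27 ± 0.87 and 8.71 ± 0.23.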
